A study of Arabidopsis thaliana with 11 samples.

Results

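AT3G13610 and CCOAMT (AT1G67980) are 2 Arabidopsis genes annotated to reactions on the way to coumarins, and their transcript levels were followed across a genotype and a hormone-inhibitor treatment. The members are the probe sets that the platform annotation names for one of these genes alone. That rule gave 1 probe set each, 256647_at for AT3G13610 and 260015_at for CCOAMT, out of 22746 probe sets that are not controls. The pair was chosen by its levels in the same groups described here: earlier results of these arrays had shown both genes to be high in the mutant on mock medium and lower on the inhibitor. Their levels and differences are therefore given as a description, without a test.

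RNA came from whole seedlings grown in darkness and collected at 4 days of age. The seedlings were Col, the wild type, or arf2, which carries a mutation in the gene for AUXIN RESPONSE FACTOR 2, a transcription factor of the auxin response. They grew on medium with 0.5 µM brassinazole (BRZ), which inhibits the synthesis of brassinosteroid hormones, or on mock medium. Labelled RNA was hybridised to 11 Affymetrix ATH1 arrays, with 2 biological replicates for the mutant on BRZ and 3 for each of the other groups. The arf2 allele and the number of seedlings pooled per sample are not given in the sources used here, and the annotation names no probe set for ARF2, so its transcript was not analysed here.

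Coumarins such as scopoletin are phenolic compounds made from phenylalanine through the phenylpropanoid pathway. Caffeoyl-CoA is methylated to feruloyl-CoA, feruloyl-CoA is hydroxylated on its ring, and the product closes to scopoletin, which the plant stores as the glucoside scopolin, secretes from roots under iron deficiency or accumulates on attack by microbes. AT3G13610, also called F6'H1, encodes the feruloyl-CoA hydroxylase, a dioxygenase that commits feruloyl-CoA to coumarins. CCOAMT is annotated as a caffeoyl-CoA 3-O-methyltransferase and belongs to a family whose best-known member makes feruloyl-CoA for lignin. The genes lie on chromosomes 3 and 1 of Arabidopsis.

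Values are gcRMA intensities as deposited, and levels are their log2. The number of arrays limits the precision. Median levels of the arrays lay between 5.93 and 6.28, with Col mock replicates 1 and 2 (5.96 and 5.93) and arf2 mock replicate 3 (6.09) below the remaining arrays, so the main values are also given without these 3 arrays. The control for large-subunit ribosomal RNA had an intensity of 263, 193 and 173 on arf2 mock, the group in which both genes were high, and 33.6 to 131 on all other arrays. Its part in the results was not tested. Of the dark-grown seedling markers 1 of 6 was measured, PORB, a protochlorophyllide reductase of chlorophyll synthesis, which was abundant on every array (11.01 to 12.11). Without light-grown samples this level is no check of growth in darkness. Whole seedlings mix organs, so fewer cells of a type and less RNA per cell cannot be told apart.

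AT3G13610 was about 10 times as abundant in arf2 as in Col on mock. On Col mock replicates 1, 2 and 3 its log2 level was 5.56, 5.52 and 5.70. On the arf2 mock replicates it was 9.24, 8.12 and 9.52. All arf2 mock arrays lay above every other array in the study. How many of all probe sets separate in this way, here or in the comparisons below, was not counted. For scale, limma called 1177 of 21886 probe sets higher in arf2 on mock (adjusted p under 0.05). The arf2 mock arrays also spread the most, replicate 2 standing 0.84 below its group mean. The group means were 5.59 ± 0.10 (SD, n = 3) in Col and 8.96 ± 0.74 (SD, n = 3) in arf2. The difference was 3.37 ± 0.28 on the log2 scale (standard error, SE, from the model over all arrays), a 10.3-fold higher intensity. By size it ranked 3 among the rises of 21886 probe sets in this comparison. Without the 3 arrays with lower medians it was 2.98.

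CCOAMT was also higher in arf2 than in Col on mock, with less spread than AT3G13610 among the arf2 mock arrays (SD 0.33 against 0.74) and more among the Col mock arrays (0.23 against 0.10). It stood at 5.81, 5.44 and 5.86 on the Col mock arrays and at 8.26, 8.38 and 8.88 on the arf2 mock arrays. Again every arf2 mock array lay above all others. The means were 5.70 ± 0.23 (SD, n = 3) and 8.51 ± 0.33 (SD, n = 3), a difference of 2.80 ± 0.19 (SE) or 6.99-fold, which ranked 10 among the rises. Leaving out the arrays with lower medians gave 2.46, based on 1 Col mock array and 2 arf2 mock arrays.

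In terms of position on the array, both transcripts stood in the middle of the distribution in Col and in its upper part in arf2. AT3G13610 exceeded 45.5 to 46.8% of the probe sets on the Col mock arrays and 76.7 to 91.0% on the arf2 mock arrays. For CCOAMT these ranges were 44.2 to 49.9% and 78.3 to 85.5%. The highest array for both genes was arf2 mock replicate 3, whereas the lowest of that group was replicate 2 for AT3G13610 and replicate 1 for CCOAMT. The Col levels lay above the lower quartile of the arrays, which ran from 4.44 to 4.65.

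**Figure D1:**
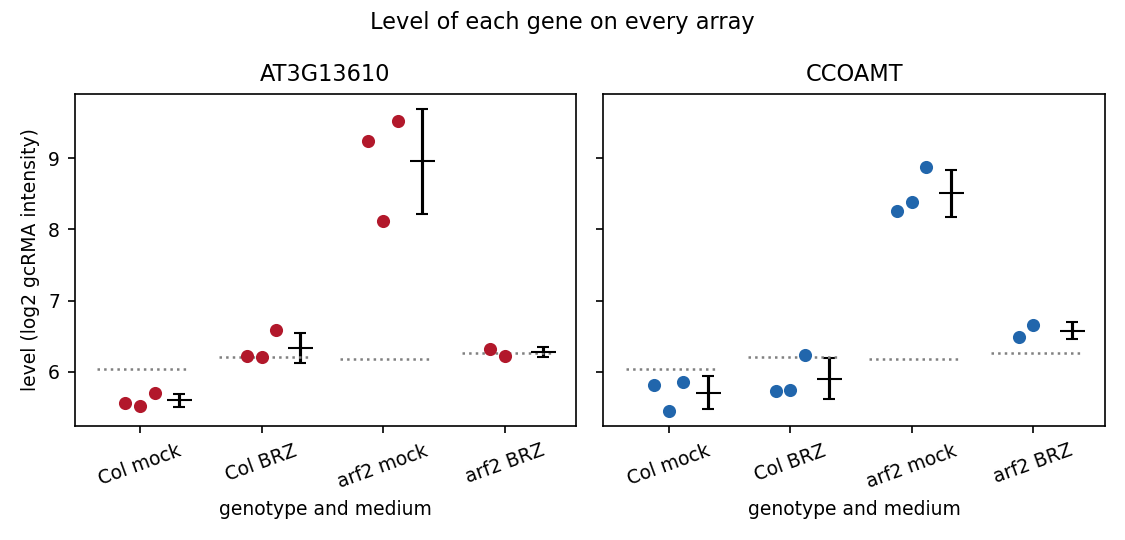
Level of AT3G13610 (left) and CCOAMT (right) on every array, as log2 gcRMA intensity, by genotype and medium. Points are arrays, the black mark and bar beside them the group mean and SD, and the dotted line the mean of the group's array medians; the arf2 mock arrays (8.12 to 9.52 and 8.26 to 8.88) lie above all others.

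BRZ was accompanied by much lower levels of both genes in the mutant. AT3G13610 stood at 6.32 and 6.22 on the arf2 BRZ arrays, a mean of 6.27 ± 0.07 (SD, n = 2), all below the arf2 mock arrays. Its BRZ difference in arf2 was -2.69 ± 0.31 (SE), or 6.46-fold lower. CCOAMT stood at 6.49 and 6.66, a mean of 6.57 ± 0.12 (SD, n = 2). Its difference was -1.93 ± 0.21 (SE), or 3.82-fold lower, also with no overlap between the groups. These differences share the arf2 mock arrays with the contrast between genotypes on mock, so the 2 sets of values are not independent of each other.

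In the wild type the values of the genes were less alike. AT3G13610 read 6.22, 6.21 and 6.58 on the Col BRZ arrays, each above all Col mock arrays, with a mean of 6.34 ± 0.21 (SD, n = 3). The difference was 0.74 ± 0.28 (SE), or 1.68-fold higher on BRZ. CCOAMT read 5.72, 5.74 and 6.23 on BRZ, a mean of 5.89 ± 0.29 (SD, n = 3), which overlapped the mock arrays. Its difference of 0.19 ± 0.19 (SE) was no larger than its error and came down to 0.02 without Col BRZ replicate 3, the array with the highest level of both genes in that group. With the arrays set to equal medians the differences were 0.58 for AT3G13610 and 0.03 for CCOAMT, a scaling that moved the median difference of all probe sets in Col from 0.06 to -0.10.

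On BRZ the genotypes nearly met. For AT3G13610 the arf2 arrays fell within the range of the Col arrays, and the difference between genotypes was -0.07 ± 0.31 (SE). Its sign was not stable, at 0.05 without Col BRZ replicate 3 and 0.08 with the replicate number as a block. For CCOAMT both arf2 BRZ arrays lay above all Col BRZ arrays, by 0.68 ± 0.21 (SE), or 1.60-fold. That was 24.2% of the log2 difference between the genotypes on mock. In order of level, AT3G13610 was highest in arf2 on mock, then in both genotypes on BRZ, which did not differ beyond their spread, and lowest in Col on mock. CCOAMT was highest in arf2 on mock and next highest in arf2 on BRZ, while Col with and without BRZ did not differ beyond their spread.

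The BRZ difference in arf2 minus that in Col, the interaction, was -3.44 ± 0.41 (SE) for AT3G13610 and -2.13 ± 0.28 (SE) for CCOAMT. It ranked 3 and 23 among the most negative of the 21886 probe sets. The position of arf2 on BRZ relative to untreated Col was alike for both genes, 0.67 and 0.87 higher on the log2 scale. The pooled SD within groups was 0.42 for AT3G13610, above that of 98.3% of probe sets. Most of it came from arf2 on mock, where the SD was 0.74 against 0.07 to 0.21 in the other groups. The SEs given for this gene share that spread. In fits of only the groups compared the SE was 0.33 between the genotypes on mock (0.28 in the main model) and 0.37 for BRZ in arf2 (0.31). It was 0.13 for BRZ in Col (0.28) and 0.12 between the genotypes on BRZ (0.31). Without arf2 mock replicate 2 the difference of AT3G13610 between the genotypes on mock was 3.79 with an SE of 0.14, in place of 3.37 with an SE of 0.28. For CCOAMT the pooled SD was 0.27, larger than that of 89.0%, and the SDs of the groups ran from 0.12 to 0.33.

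**Figure D2:**
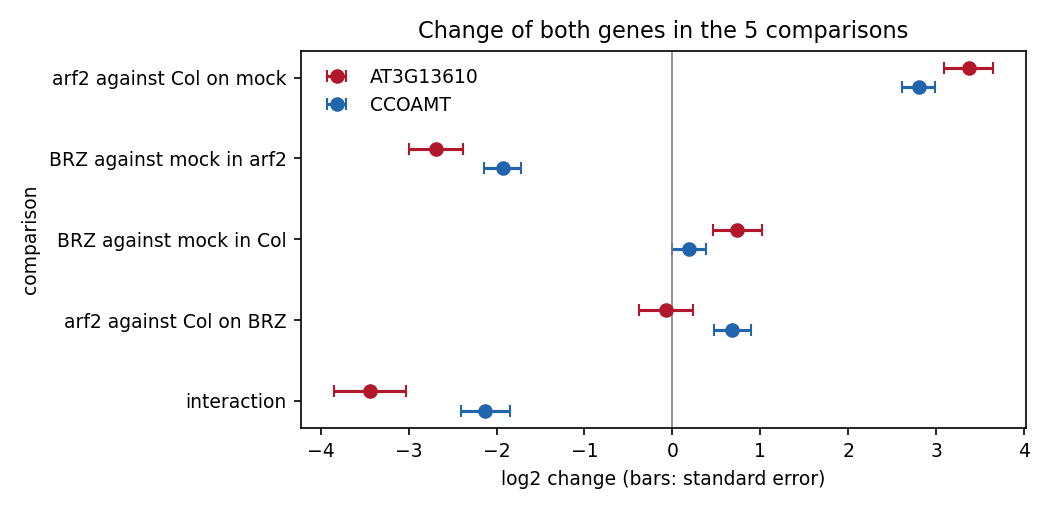
Log2 change of AT3G13610 and CCOAMT in the 5 comparisons, with standard errors from the model over all 11 arrays. Both genes lie far to the right for arf2 against Col on mock (3.37 and 2.80) and to the left for BRZ in arf2 (-2.69 and -1.93); on BRZ only CCOAMT lies clear of 0 between the genotypes (0.68).

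Other genes were examined through lists of 104 genes, of which 21 had a tested probe set that names them alone. The lists held the rest of the pathway and its branches, and also iron-deficiency genes, indolic and pathogen response genes, root markers and dark-grown seedling markers. Most of the early enzymes, such as phenylalanine ammonia-lyase, were not measured in this way. The annotation gives no gene name for 8730 of the 22746 probe sets that are not controls. A gene not measured here can thus still have a probe set on the array. Between arf2 and Col on mock 2 of the 21 measured genes passed the test (limma, adjusted p under 0.05), beside 7.35% of all probe sets tested. For BRZ in arf2 it was 1 gene (5.81% of all probe sets), for BRZ in Col none (8.94%, with 2 genes at an unadjusted p under 0.05), for the genotypes on BRZ none (0.617%, with 2 genes at an unadjusted p under 0.05) and for the interaction 1 gene (0.841%). The calls were AT1G26380 of the indolic and pathogen response list in each comparison with a call, and PORB of the dark-grown seedling markers on mock. AT1G26380 was already known from these arrays when its list was drawn up. Its calls, and the counts that include it, are therefore no independent evidence. No gene of the pathway and its branches was called in the model over all arrays. The median log2 change of the listed genes on mock was 0.08, next to 0.05 over all probe sets.

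Of the coumarin branch 6 of 13 listed genes were measured, and limma called 0 of them in each comparison; at an unadjusted p under 0.05 it was 0 between the genotypes on mock, on BRZ and for the interaction, and 1 for BRZ in each genotype. AT1G55290, the second feruloyl-CoA hydroxylase, stayed at the bottom of the arrays, at 4.22 ± 0.12 (SD, n = 3) in arf2 on mock and 4.27 ± 0.07 (SD, n = 3) in Col on mock, under the lower quartile of every array. COSY (AT1G28680), the coumarin synthase that closes the ring after AT3G13610 has acted, was well expressed. Its levels were 7.82, 7.90 and 8.20 on Col mock and 8.19, 8.25 and 7.97 on arf2 mock, which overlap. The log2 change of COSY was 0.17 ± 0.12 (SE, adjusted p 0.50 by limma).

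Downstream of scopoletin the measured genes gave no call in the model over all arrays. S8H (AT3G12900), which hydroxylates scopoletin to fraxetin, was near background (4.43 in Col and 4.61 in arf2 on mock). UGT71C1, a glucosyltransferase that can act on scopoletin, had a log2 change of -0.08 between the genotypes on mock. BGLU42, a beta-glucosidase of coumarin release in roots, was 0.42 higher in arf2 on mock (adjusted p 0.259, limma), from widely spread Col mock arrays (SD 0.49). Without Col mock replicate 3 that change was 0.62 with an adjusted p of 0.0411, and its change for BRZ in Col was 0.73 with an adjusted p of 0.0159. PYK10 (BGLU23 in the list), a root beta-glucosidase that hydrolyses scopolin, was among the most abundant transcripts at 13.19 in Col and 13.04 in arf2 on mock, with no call.

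Genes upstream of the coumarin branch and beside it also gave no call in the model over all arrays. HCT, the hydroxycinnamoyl transferase and the measured 1 of 13 genes of the general phenylpropanoid list, stood at 9.99 in Col and 10.09 in arf2 on mock. Of the CCoAOMT family, the relatives of CCOAMT, 2 of 6 listed genes were measured. AT1G24735 had a log2 change of 0.18 and AT3G62000 of -0.01 between the genotypes on mock, and limma called neither in any comparison, also at an unadjusted p under 0.05. In the lignin branch the measured genes were 2 of 10, the aldehyde dehydrogenase ALDH2C4 and CCR2, a cinnamoyl-CoA reductase. In the flavonoid branch they were 4 of 10. Limma called 0 genes of these branches in the comparisons; at an unadjusted p under 0.05 there was 1 lignin gene for BRZ in each genotype and no flavonoid gene. With equal array medians CCR2 passed for BRZ in Col, with a log2 change of -0.48 and an adjusted p of 0.0401.

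Lists for settings in which coumarin genes are known to respond were thinly covered by probe sets that the annotation names for 1 gene alone. Of 21 iron-deficiency genes 2 were measured, the bHLH factors BHLH101 and PYE, and limma called neither. BHLH101 differed by 0.40 between the genotypes on mock (adjusted p 0.19) and by 0.44 on BRZ (adjusted p 0.451), and at an unadjusted p under 0.05 that was 1 gene in each of these comparisons. Of 15 genes of indolic and pathogen response 1 was measured, AT1G26380, a berberine bridge oxidase of indole carbonyl nitrile synthesis. It rose by 3.94 in arf2 on mock (adjusted p 2.74e-06, limma) and fell by 3.50 on BRZ in arf2 (adjusted p 2.21e-05). AT1G26380 was already known from these arrays when the list was drawn up and is no independent evidence. The other call on mock was PORB, 0.68 lower in arf2 (adjusted p 0.0183). That call was lost without arf2 mock replicate 1 (adjusted p 0.08) or replicate 2 (0.0682) and without the 3 arrays with lower medians (0.116).

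Because AT3G13610 is known mainly from roots, root markers are given beside it. Of 12 listed markers 3 were measured, PYK10 and the root hair expansins EXPA7 and EXPA18. Their log2 changes between the genotypes on mock lay between -0.20 and 0.05, against 3.37 for AT3G13610 and 2.80 for CCOAMT. For BRZ in arf2 they lay between -0.20 and 0.04. Limma called 0 of them in any comparison, also at an unadjusted p under 0.05. Both expansins were near the lower quartile of the arrays, so PYK10 was the 1 abundant root marker.

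**Figure D3:**
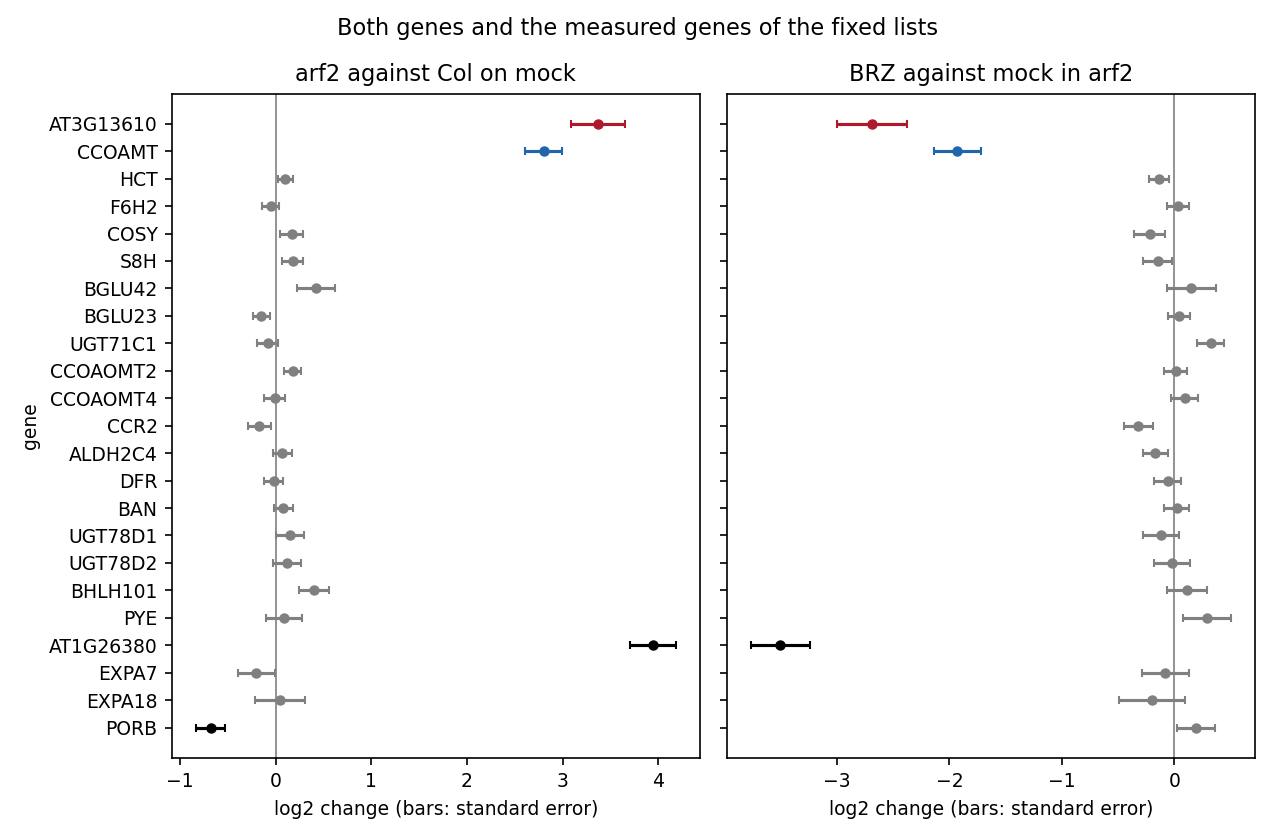
Log2 change with standard error of AT3G13610, CCOAMT and the 21 measured genes of the lists, for arf2 against Col on mock (left) and BRZ against mock in arf2 (right); the listed genes are black where the adjusted p was under 0.05 and grey otherwise, and F6H2 stands for AT1G55290. Among the listed genes AT1G26380 lies beyond both members (3.94 and -3.50), PORB is lower in arf2 on mock (-0.68), and the others lie near 0.

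The genes with the most similar pattern were found by the lower of their Pearson correlations with AT3G13610 and with CCOAMT over the 11 arrays, among 12851 probe sets that name 1 other gene. The members themselves correlated at 0.954. All arrays enter these correlations, and the 3 arf2 mock arrays carry most of the variation, so a high value mainly marks genes that are higher in that group. The 10 most alike had a lower correlation of 0.934 to 0.952, and 42 exceeded 0.9. A further 19 probe sets without a gene name, or with several, correlated as well as the 10 named ones.

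AT1G26380 and its neighbour AT1G26390, both berberine bridge oxidases, were among the 10 and moved the farthest. AT1G26380 read 8.97, 8.38 and 9.28 on the arf2 mock arrays and 4.66 to 5.46 elsewhere. AT1G26390 read 6.96, 6.74 and 8.09 there. YLS5 (AT2G38860), a gene named for its expression in yellowing leaves, had the highest correlation with AT3G13610 of the 10, at 0.980. It read 10.03, 9.02 and 9.76 on arf2 mock and had a mean of 7.74 in Col on mock, so it was 1.86 ± 0.21 (SE) higher in the mutant.

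The other like genes moved less. AT1G74360, a receptor-like kinase with leucine-rich repeats, was 1.17 ± 0.11 (SE) higher in arf2 on mock, but from a Col mean of 4.26, below the lower quartile of the arrays. AT4G20000, AT4G36610, AT2G16900, AT1G52200, AT1G36730 and AT1G66090 were higher by 1.13, 1.09, 0.77, 0.67, 0.52 and 0.45. In 10 of these 10 genes every arf2 mock array lay above all other arrays, as for AT3G13610 and CCOAMT. The genes were picked by correlation with these profiles, so this separation is largely built into the choice and is only a description. Their BRZ changes in Col lay between -0.12 and 0.34, below the 0.74 of AT3G13610.

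Within the arf2 mock group, replicate 2 was the lowest array in 9 of these 10 genes and replicate 3 the highest in 7, as for AT3G13610. Over all tested probe sets replicate 2 was the lowest in 29.1% and replicate 3 the highest in 33.1%. The 10 genes were picked by correlations that include these arrays. Their order is thus partly built into the choice and is given as a description only. CCOAMT had its lowest value in the group on replicate 1. The ribosomal RNA control was 263, 193 and 173 on replicates 1, 2 and 3, lowest on the array where AT3G13610 and CCOAMT were highest; its part in the order was not tested.

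**Figure D4:**
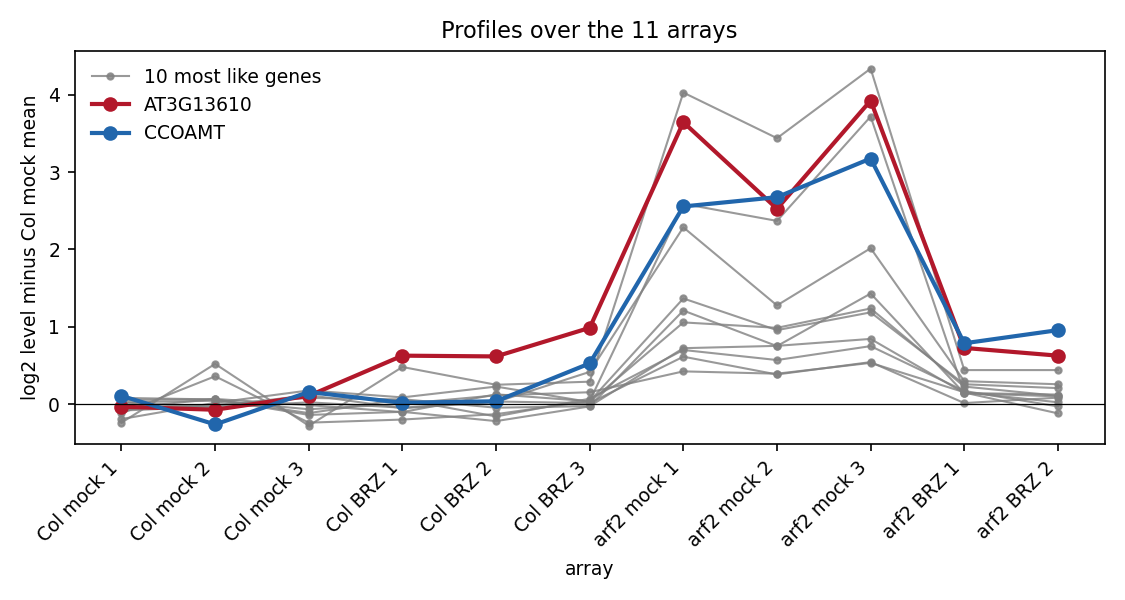
Profiles of AT3G13610, CCOAMT and the 10 genes most like both over the 11 arrays, as log2 level minus the gene's Col mock mean. The profiles are near 0 in Col, high on the 3 arf2 mock arrays and low again on arf2 BRZ, and AT3G13610 is also raised on the Col BRZ arrays.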

How the data were processed

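The authors deposited 1 gcRMA intensity per probe set and array, on a linear scale, computed after quality control with simpleaffy, per the series' design text and the submitters' processing notes; no version is stated. They also left out 1 array of arf2 on BRZ. The log2 of each intensity was taken here. Of 22810 probe sets 64 were controls, and 860 failed a filter that asked for a log2 above 4 on 2 or more arrays, which left 21886, both members included. All 11 arrays entered 1 model in limma 3.58.1 (R 4.3.3) with a mean per group and 7 residual degrees of freedom. The adjusted p is two-sided, after Benjamini-Hochberg correction over all tested probe sets.

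The members and the gene lists were chosen with earlier results of these data known. Named are the members, measured listed genes and the 10 genes most alike by the lower of their correlations with both members. Gene names follow the platform annotation, matched to the RefSeq gene table of TAIR10.1. Promoter and protein sequences were not used here, so the planned motif search and protein comparison were not run. The code was checked on simulated data with independent normal noise. Correlated deviations between arrays, such as those given next, were not simulated, so that run is no check of the results. For samples with the same replicate number, deviations from the group mean correlated at -0.59 to 0.14 over 15 pairs. The numbers were therefore used as a block only in an alternative. For samples with different numbers the correlations ran from -0.44 to 0.60, both between a Col mock and an arf2 mock array. Figures were drawn with matplotlib 3.10.9 (Python 3.11.15).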

Additional observations from a re-analysis of the deposited data

Results flagged for a closer look

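With BRZ, AT3G13610 differed in opposite directions in the 2 genotypes. Every Col BRZ array lay above every Col mock array, and every arf2 BRZ array below every arf2 mock array. How many of all probe sets separate in this way was not counted. The difference in Col, 0.74 ± 0.28 (SE) and 0.58 with equal array medians, was small beside the -2.69 in arf2. The BRZ difference in arf2 minus that in Col was -3.44 on the log2 scale, a difference that was not tested because the gene was chosen by these levels. For AT1G26380, the like gene of the indolic list, limma called the interaction at -3.84 (adjusted p 0.000408). With single arrays left out it lay between -4.10 and -3.63. AT1G26380 was already known from these arrays when listed, and its likeness to the members was found on the same arrays. Its p is therefore no independent evidence.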

How the results depend on the processing

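Leaving out single arrays moved AT3G13610 between 3.09 and 3.79 for arf2 against Col on mock, between -3.11 and -2.41 for BRZ in arf2 and between -3.86 and -3.16 for the interaction. The upper sizes came without arf2 mock replicate 2 and the lower ones without replicate 3. For CCOAMT the 3 arrays with lower medians left out gave 2.46 on mock and -1.78 for the interaction. Every other alternative kept the differences of both genes within the SD between replicates of the values reported. With the replicate block the differences for BRZ in arf2 were -2.54 for AT3G13610 and -1.79 for CCOAMT; the block cannot alter those between the genotypes on mock, where both groups hold the same numbers. The numbers do not pair the samples by the check made. Among listed genes the number of calls on mock ranged from 1 to 3 with single arrays left out, and was 1 with a 2-fold minimum and 1 without the 3 arrays. For BRZ in Col it was 0 to 1 with single arrays left out and 1 with equal medians, and for the genotypes on BRZ it was 1 with array weights, which was PORB (adjusted p 0.0354). Of 2079 combinations of listed gene, comparison and alternative, 2071 had the reported outcome, which for most was no call. A further 4 were called under the alternative only. The 4 called in the main fit only were PORB on mock. There were 0 called changes that reversed. The number of probe sets called over all tested depended more on the arrays: with single arrays left out it ran from 882 to 3040 on mock (1609 reported), from 503 to 1825 for BRZ in arf2 (1271), from 936 to 5084 for BRZ in Col (1956), from 49 to 256 for the genotypes on BRZ (135) and from 62 to 344 for the interaction (184). Array weights gave 2693, 903 and 301 for BRZ in arf2, the genotypes on BRZ and the interaction, and the replicate block 783, 66 and 84. Fits of only the groups compared gave 663 on mock, 959 for BRZ in Col and 372 for the genotypes on BRZ. A 2-fold minimum gave 287, 314, 243 and 54 in the comparisons without the interaction. Without the 3 arrays there were 830, 2199, 903 and 675. With 2 or 3 arrays a group, a small difference such as that of CCOAMT in Col cannot be resolved.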

Other observations

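The chromosomal surroundings of both genes were looked at after the other values had been seen, and are a description only. They are the 3 nearest measured genes on each side by gene order, 12 genes in all. Of these, limma called AT1G67920 on mock (adjusted p 0.0167), beside 7.35% of all probe sets. For BRZ in arf2 it called AT1G67930 (adjusted p 0.0482, beside 5.81%). For BRZ in Col it called AT3G13650 (adjusted p 0.00245, beside 8.94%). It called 0 between the genotypes on BRZ (beside 0.617%) and for the interaction (beside 0.841%). Around AT3G13610 the log2 changes between arf2 and Col on mock lay between -0.25 for AT3G13650 and 0.24 for AT3G13580. Around CCOAMT they lay between -0.01 for AT1G68040 and 0.37 for AT1G67950 and HPR, except for AT1G67920, which is 7 genes away. AT1G67920 was 0.70 higher in arf2 on mock. For BRZ in arf2 the log2 changes ran from -0.20 for AT3G13650 to 0.40 for AT3G13560 around AT3G13610, and from -0.65 for AT1G67920 to 0.45 for AT1G67930 around CCOAMT. For BRZ in Col they ran from -0.83 for AT3G13650 to 0.41 for AT3G13580 around AT3G13610, and from -0.29 for AT1G67920 to 0.57 for AT1G67950 around CCOAMT.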
